A study of Mus musculus with 18 samples.

Results

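Sterol regulatory element-binding protein 2 (SREBP2) is the transcription factor that switches on cholesterol synthesis and uptake. When sterols in the endoplasmic reticulum run low, the escort protein SCAP carries SREBP2 to the Golgi, where proteases release its active part, whereas INSIG proteins hold the SCAP and SREBP2 complex back when sterols are plentiful. Macrophages also take up cholesterol by engulfing cells and lipoproteins, export it from lysosomes through the NPC proteins and store it as cholesteryl ester.

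The genes described here are 28 of the 18204 genes listed in the deposited table. They were chosen by symbol as enzymes of sterol synthesis, regulators of SREBP2 and proteins of sterol transport and storage. The choice was made with earlier results of these data known, so the shares of them that passed are not an independent test. All 28 passed the limit on low expression, which left 16383 genes for testing. By role they comprise 9 genes of acetyl-CoA supply and the mevalonate arm, 3 of squalene and lanosterol formation, 8 of the route from lanosterol to cholesterol, 4 of SREBP2 control and 4 of sterol transport and storage.

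RNA-seq was performed on J774.1 cells, a mouse macrophage line, to ask how specifically MTOB and 4-Cl-HIPP inhibit the C-terminal binding proteins CTBP1 and CTBP2. These transcriptional co-repressors carry a dehydrogenase domain, in whose active site both compounds bind. There were 6 groups of 3 biological replicates. Wildtype and Ctbp1/2 double knockout (dKO) cells received vehicle (PBS/DMSO), MTOB at 1.5 mM or 4-Cl-HIPP at 250 µM, each for 4 h. All groups were grown in medium with serum, which itself contains cholesterol. The dKO cells were made with Cas9 and grown out from single cells, so a feature of a clone cannot be told apart from the loss of CTBP1 and CTBP2. A single vehicle group per genotype served both inhibitors, so the 2 inhibitor comparisons in a genotype share their controls. MTOB was dissolved in PBS and 4-Cl-HIPP in DMSO, while the paper names the control as PBS/DMSO in its methods and as DMSO elsewhere. Whether the control matched the solvent of each inhibitor is therefore unclear. Where it did not, an effect of the solvent cannot be told apart from that of the inhibitor. Expression is given as TPM (transcript abundance per length). The deposited columns are headed scaledTPMs, and whether they were scaled in a further way is not given in the sources used here. They add up to nearly the same total in every sample, so the sequencing depth behind a value is unknown. Because cells were measured in bulk, fewer cells of a kind and less RNA per cell cannot be told apart.

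Ctbp1 RNA fell from 218 ± 18.1 TPM (SD, n = 3) in wildtype to 25.1 ± 0.638 TPM (SD, n = 3) in dKO cells under vehicle, and Ctbp2 fell from 92.6 ± 4.57 to 75.9 ± 3.12 TPM (SD, n = 3). Whether the remaining RNA is mutated cannot be read from values per gene. The paper reports that a premature stop and a frameshift were placed in both genes. It also reports loss of both proteins, shown by western blot. The 7 macrophage markers listed had means of 30.8 to 840 TPM over the 18 samples, with Csf1r, Cd68, Lyz2 and Spi1 at 246 TPM or more. The 3 listed marker genes of fibroblasts and lymphocytes, Col1a1, Cd3d and Cd79a, did not exceed 2.07 TPM in any sample. Some macrophage markers differed between groups. Adgre1 had 29.1 TPM in wildtype vehicle, 102 TPM in wildtype MTOB and 8.93 TPM in dKO vehicle cells. Itgam had 15.8 TPM in wildtype and 47.9 TPM in dKO cells under vehicle, Fcgr1 33.3 and 52.3 TPM and Cd68 554 and 643 TPM. With MTOB Lyz2 went from 520 to 673 TPM in wildtype and from 488 to 574 TPM in dKO cells. The part of these markers in the results below was not tested. Over all genes, Pearson's r between replicates was 0.983 to 0.987.

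In wildtype cells under vehicle the genes ranged from 2.76 ± 0.685 TPM (SD, n = 3) for Tm7sf2, a sterol reductase, to 249 ± 6.37 TPM (SD, n = 3) for Fdps, the farnesyl diphosphate synthase. Apart from Fdps, Soat1 and Acly exceeded 100 TPM. Soat1, which encodes the enzyme that esterifies cholesterol for storage, had 131 TPM, and Acly, which encodes the ATP citrate lyase that supplies cytosolic acetyl-CoA, had 103 TPM. Together the 20 synthesis enzymes summed to 946 ± 21.0 TPM (SD, n = 3). Changes are given below as differences of log2(TPM + 1), a scale that understates the change of low genes, and were tested with limma with Benjamini-Hochberg adjustment over all 16383 genes. Genes are said to have risen or fallen when the adjusted p-value was below 0.05. In no comparison did a sterol gene pass this test with a change of more than 1.5-fold, as did 2.01% of all genes with MTOB in wildtype, 0.14% with 4-Cl-HIPP in wildtype, 1.63% with MTOB in dKO, 0.153% with 4-Cl-HIPP in dKO and 4.83% between the genotypes.

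4-Cl-HIPP was followed by higher RNA of most sterol synthesis enzymes in both genotypes, though few of the differences passed the test. In wildtype cells Hmgcs1, Mvd, Sqle and Idi1 rose and none fell. These 4 of 28 (14.3%) compare with 0.324% of all genes tested that rose and 0.0427% that fell. The log2 fold change was above 0 for 26 of the 28 genes and for all 20 synthesis enzymes, against 53.3% of all genes. The median was 0.25 for the 28 and 0.010 for all genes. In dKO cells Hmgcs1, Mvd and Stard4 rose (10.7%) and none fell, against 0.403% of all genes that rose and 0.0977% that fell. There 23 of 28 genes and 17 of the 20 synthesis enzymes were above 0, against 51.9% of all genes. The 3 enzymes below 0 were Ggps1, Ebp and Dhcr7. Of the genes that rose in dKO cells, Stard4 is not a synthesis enzyme. The median was 0.19 against 0.0043 for all genes. When the model held the compared groups alone, 0 of the 28 passed in either genotype (limma), where 0.146% of all genes passed in wildtype and 0.0549% in dKO cells. An unadjusted p-value below 0.05 was then found for 13 in wildtype (background 8.58%) and 14 in dKO cells (background 9.54%).

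Of the 28 genes, Hmgcs1 had the smallest p-value with 4-Cl-HIPP in both genotypes. It encodes the cytosolic HMG-CoA synthase, which condenses acetyl-CoA units on the way to mevalonate. Its level was 36.2, 39.9 and 39.4 TPM in the 3 wildtype vehicle samples and 56.0, 52.0 and 54.6 TPM with 4-Cl-HIPP. In dKO cells it was 43.6, 39.7 and 40.2 TPM with vehicle and 59.3, 54.1 and 52.2 TPM with 4-Cl-HIPP. Every treated sample lay above every vehicle sample of either genotype. The log2 fold change was 0.48 (SE 0.067, adjusted p = 0.00477, limma) in wildtype and 0.41 (SE 0.067, adjusted p = 0.00973, limma) in dKO cells. The wildtype call held whichever sample was left out, and the dKO call was lost without dKO vehicle replicate 2 (adjusted p = 0.0558, limma) or dKO 4-Cl-HIPP replicate 1 (adjusted p = 0.0634, limma). Hmgcs1 shares 634 exon bases with 2 other genes, 557 of them with the antisense gene Gm48342, and an unstranded library cannot separate their reads from its own.

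The sequence just upstream of Hmgcs1 is shown with those of Sqle and Mvd because these genes had the smallest p-values with 4-Cl-HIPP in wildtype cells. SREBP2 binds sterol regulatory elements, searched for here as TCACNCCAC, together with the factor NF-Y. The stretch is on the plus strand of chromosome 13 in GRCm39, chr13:120151732-120151914, which ends where the first annotated exon of Hmgcs1 begins. Capitals mark the match to TCACNCCAC, 232 bases before the start of the canonical transcript, and 2 matches to CCAAT, the NF-Y motif, which lie on the other strand and are read here as ATTGG.
Hmgcs1: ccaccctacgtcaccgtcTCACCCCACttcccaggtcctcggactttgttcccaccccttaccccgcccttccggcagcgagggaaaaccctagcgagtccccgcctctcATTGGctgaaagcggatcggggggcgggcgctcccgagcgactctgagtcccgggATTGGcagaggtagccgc
The stretch of Sqle, chr15:59186632-59186868 on the plus strand, holds 2 matches to CCAAT and none to TCACNCCAC.
Sqle: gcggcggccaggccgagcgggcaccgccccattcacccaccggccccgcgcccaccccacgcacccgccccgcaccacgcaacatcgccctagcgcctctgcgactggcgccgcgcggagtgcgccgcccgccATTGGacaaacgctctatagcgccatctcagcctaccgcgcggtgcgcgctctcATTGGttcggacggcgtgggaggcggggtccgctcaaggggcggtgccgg
That of Mvd, chr8:123170325-123170574 on the minus strand, holds neither motif, and 210 of its bases also lie in exons of an antisense non-coding gene.
Mvd: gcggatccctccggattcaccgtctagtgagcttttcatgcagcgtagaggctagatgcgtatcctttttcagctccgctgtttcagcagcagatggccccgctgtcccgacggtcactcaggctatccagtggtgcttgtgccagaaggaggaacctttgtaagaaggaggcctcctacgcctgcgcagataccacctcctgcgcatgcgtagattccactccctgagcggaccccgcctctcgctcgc
Over 21757 protein-coding promoters of the same length, read on both strands, TCACNCCAC was found in 1.12% and CCAAT in 36.5%. No match to one motif overlapped a match to the other in the 28 genes. Of the 28 genes, 1 held TCACNCCAC and 19 held CCAAT (67.9%). A match is only a run of letters, and factor binding was not measured.

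**Figure D1:**
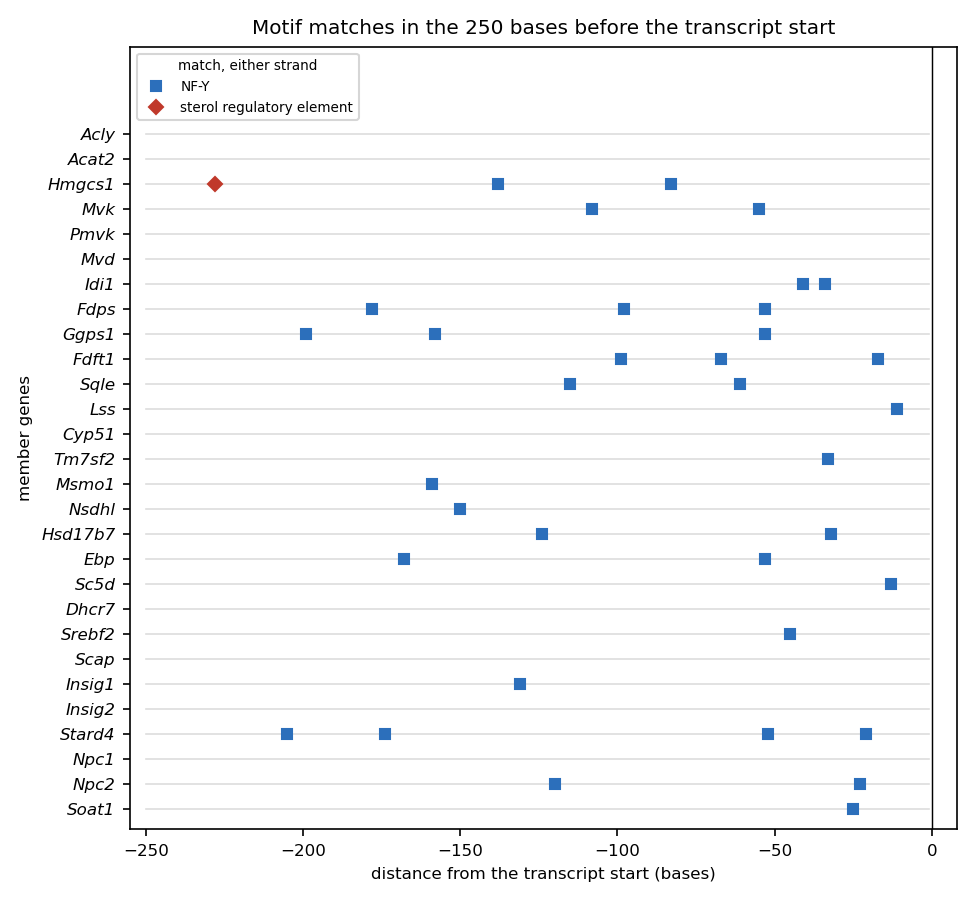
Matches to the NF-Y motif (blue squares) and the sterol regulatory element (red diamond) in the 250 bases before the transcript start of each gene. The x axis is the distance from the start in bases and the y axis lists the 28 genes. The sterol regulatory element matched in Hmgcs1 alone, whereas 19 genes have at least 1 NF-Y match.

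Further along the mevalonate arm, Mvd and Idi1 were higher after 4-Cl-HIPP. Mvd encodes the decarboxylase that makes isopentenyl diphosphate. It had 33.4, 26.7 and 27.6 TPM with vehicle and 39.7, 39.2 and 42.0 TPM with 4-Cl-HIPP in wildtype cells, and 26.8, 28.7 and 27.5 against 39.2, 35.7 and 38.2 TPM in dKO cells. The treated samples lay above the vehicle samples in both genotypes, with a log2 difference of 0.46 (SE 0.080, adjusted p = 0.0199, limma) in wildtype and 0.43 (SE 0.080, adjusted p = 0.0244, limma) in dKO cells. The wildtype call was lost without any 1 of 5 samples, the exception being vehicle replicate 1, and the dKO call without any 1 of 5, the exception being 4-Cl-HIPP replicate 2 (adjusted p up to 0.111 and 0.117, limma). Mvd likewise shares 559 exon bases with the antisense gene Gm51557.

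Idi1 encodes the isomerase that interconverts the 2 isoprenoid building blocks. It had 59.3, 54.4 and 56.3 TPM with vehicle and 70.8, 70.8 and 65.1 TPM with 4-Cl-HIPP in wildtype cells, a log2 difference of 0.28 (SE 0.053, adjusted p = 0.0342, limma). The dKO samples had 60.4, 56.5 and 58.2 against 66.7, 73.6 and 67.8 TPM, a log2 fold change of 0.25 (adjusted p = 0.0558, limma). The groups did not overlap in either genotype, though the dKO difference missed the threshold. The wildtype call was lost without 4-Cl-HIPP replicate 1 or 2 or vehicle replicate 2 or 3 (adjusted p = 0.128 to 0.167, limma). Idi1 shares 323 exon bases with Gm48574 on the opposite strand.

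Sqle encodes squalene epoxidase, the first oxygen-requiring step. Its level was 60.9, 64.7 and 61.6 TPM with vehicle and 77.8, 80.0 and 73.9 TPM with 4-Cl-HIPP in wildtype cells, a log2 difference of 0.30 (SE 0.051, adjusted p = 0.0153, limma). The dKO values were 68.9, 70.8 and 68.5 TPM with vehicle and 87.6, 80.5 and 76.9 TPM with 4-Cl-HIPP, a log2 fold change of 0.23 (adjusted p = 0.0644, limma). Again all treated samples were above all vehicle samples of the same genotype. The wildtype call was lost without 4-Cl-HIPP replicate 1 or 2 or vehicle replicate 1 or 3 (adjusted p = 0.0603 to 0.0886, limma). Its exons overlap those of Washc5, on the other strand, by 470 bases.

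**Figure D2:**
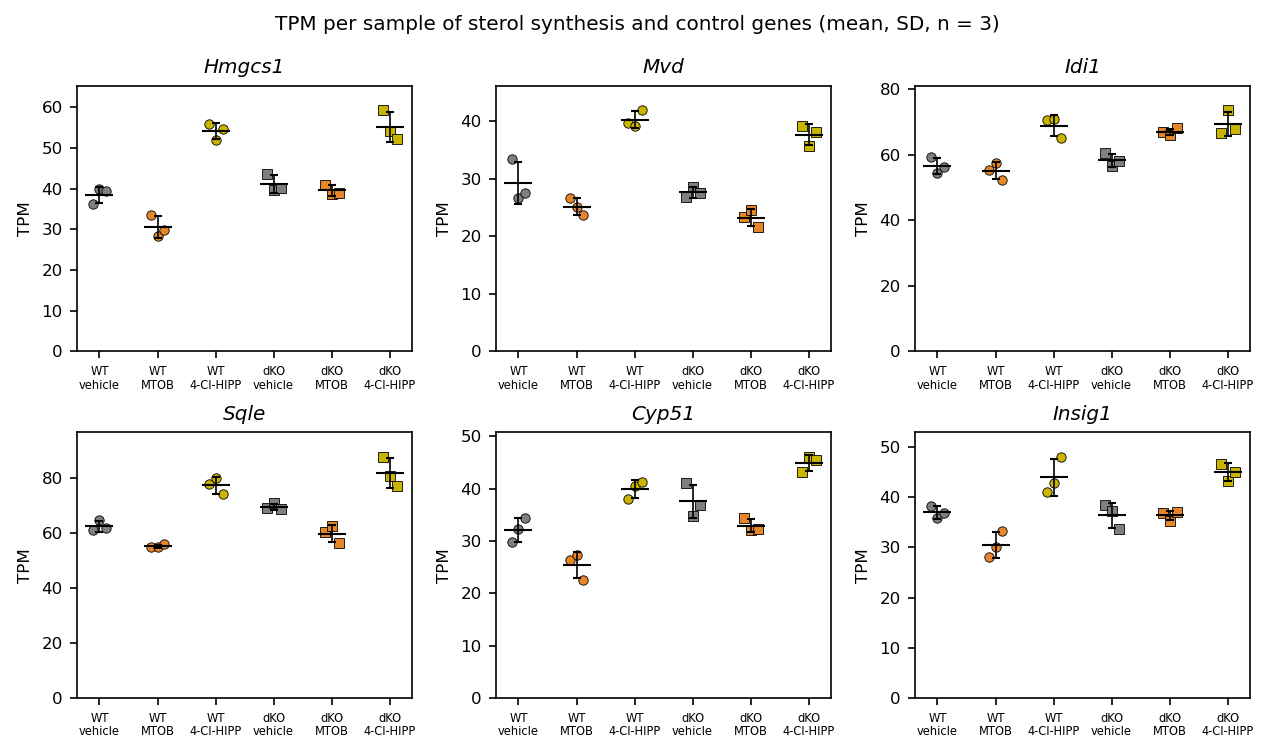
TPM of Hmgcs1, Mvd, Idi1, Sqle, Cyp51 and Insig1 (y axes, from 0) in the 6 groups on the x axes. Points are single samples (circles wildtype, squares dKO, grey vehicle, orange MTOB, yellow 4-Cl-HIPP), horizontal marks are means and bars SD (n = 3). Hmgcs1 with 4-Cl-HIPP lies between 52.0 and 59.3 TPM, above all 6 vehicle samples.

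Among the genes of SREBP2 control and transport, the response to 4-Cl-HIPP was uneven. Insig1 encodes a retention protein of SCAP and is itself a target of SREBP2. It had 38.3, 35.8 and 36.9 TPM with vehicle and 41.0, 42.9 and 48.1 TPM with 4-Cl-HIPP in wildtype cells, with a log2 difference of 0.24 (adjusted p = 0.268, limma). The dKO samples had 38.4, 37.2 and 33.7 against 46.7, 43.2 and 45.1 TPM, a log2 fold change of 0.30 (adjusted p = 0.0925, limma). Treated samples were above vehicle samples in both genotypes, but neither difference passed the test. Insig2, which encodes the other INSIG protein, had 12.9, 11.0 and 16.0 TPM with vehicle and 22.1, 20.2 and 19.1 TPM with 4-Cl-HIPP in wildtype cells. This log2 fold change of 0.60 (SE 0.27) was the largest of the 28 there, without overlap, but did not pass (adjusted p = 0.595, limma). In dKO cells Insig2 had 14.5, 17.1 and 25.8 against 18.9, 19.2 and 12.8 TPM, with overlap and a log2 fold change of -0.15 (adjusted p = 0.953, limma). The difference between the genotypes was 0.74 (95% interval -0.084 to 1.57) and did not pass (adjusted p = 1, limma).

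Stard4 encodes a soluble sterol carrier. In dKO cells it had 25.2, 20.9 and 22.9 TPM with vehicle and 33.1, 30.7 and 28.7 TPM with 4-Cl-HIPP, without overlap, a log2 difference of 0.41 (SE 0.080, adjusted p = 0.0338, limma). In wildtype cells it had 22.4, 24.8 and 21.2 against 26.4, 24.4 and 28.6 TPM, where the groups overlapped, with a log2 fold change of 0.21 (adjusted p = 0.487, limma). The difference between the genotypes (wildtype minus dKO) was -0.20 and did not pass (adjusted p = 1, limma). The dKO call was lost when any 1 sample other than vehicle replicate 1 was left out (adjusted p = 0.0509 to 0.157, limma). Stard4 shares 173 exon bases with Gm58437 on the other strand.

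Srebf2 itself, which encodes SREBP2, had 97.3, 95.3 and 97.0 TPM with vehicle and 104, 94.7 and 113 TPM with 4-Cl-HIPP in wildtype cells. These groups overlapped, with a log2 fold change of 0.10 (95% interval -0.018 to 0.22). The values in dKO cells were 114, 117 and 116 TPM with vehicle against 121, 121 and 116 TPM, a log2 fold change of 0.045 (95% interval -0.072 to 0.16). Scap had log2 fold changes of -0.10 and 0.093 in wildtype and dKO cells, Npc2 of 0.028 and -0.058 and Soat1 of -0.060 and 0.019, and none of these passed the test.

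Among the remaining genes, Acat2, Fdft1, Cyp51, Msmo1 and Nsdhl did not pass in either genotype but showed no overlap between 4-Cl-HIPP and vehicle in both, each higher with 4-Cl-HIPP. Acat2 encodes a cytosolic acetoacetyl-CoA thiolase, Fdft1 squalene synthase, Cyp51 the lanosterol demethylase, Msmo1 a sterol oxidase and Nsdhl a sterol dehydrogenase. In all, 13 of the 28 genes lay without overlap above vehicle in wildtype cells, against 7.65% of all genes tested, and 14 in dKO cells, against 8.01%. 10 of them did so in both genotypes, for which the share of all genes was not counted. 1 gene, Scap, lay below vehicle in wildtype cells (background 4.94%) and 0 in dKO cells (background 5.73%). At an unadjusted p-value below 0.05 there were 16 genes in wildtype (background 5.25%) and 14 in dKO cells (background 4.91%), all of them higher with 4-Cl-HIPP, while 2.94% and 3.56% of all genes were lower.

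The 2 genotypes share no samples in these comparisons, so they could be averaged. With the 4-Cl-HIPP effect averaged over wildtype and dKO cells, a contrast chosen after the data were seen, 10 of 28 genes rose (35.7%) and 0 fell, against 1.1% and 0.397% of all genes. No gene was lower at an unadjusted p-value below 0.05 in limma. The 10 were Hmgcs1 (0.45, SE 0.047, adjusted p = 0.00014, limma, the smallest of them), Mvd (0.44), Acat2 (0.32), Stard4 (0.31), Cyp51 (0.28), Insig1 (0.27), Msmo1 (0.27), Sqle (0.27), Idi1 (0.26) and Fdps (0.17), with adjusted p-values up to 0.0236 (limma). In TPM, the summed level of the 20 enzymes was 968, 943 and 927 with vehicle and 1125, 1086 and 1139 with 4-Cl-HIPP in wildtype cells, and 973, 994 and 1009 against 1137, 1142 and 1111 in dKO cells. The treated samples lay above the vehicle samples of both genotypes.

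**Figure D3:**
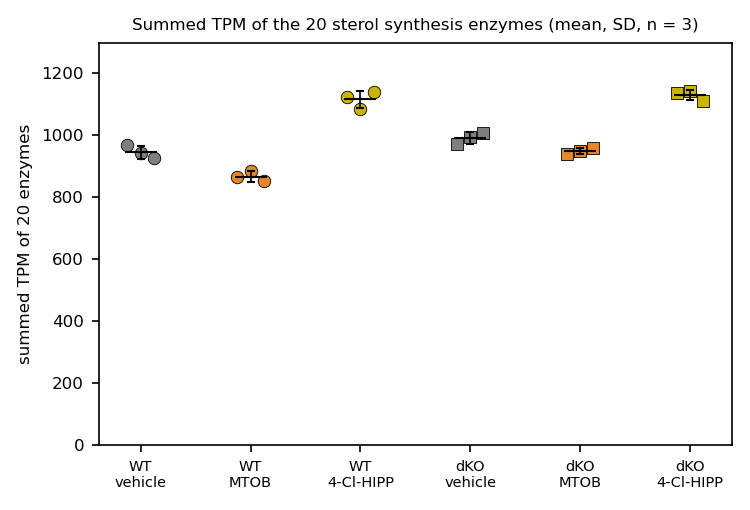
Summed TPM of the 20 sterol synthesis enzymes (y axis, from 0) in the 6 groups (x axis). Points are samples, horizontal marks means and bars SD (n = 3). Samples with 4-Cl-HIPP sum to between 1086 and 1142 TPM, vehicle samples to between 927 and 1009 TPM and MTOB samples to between 852 and 959 TPM.

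With MTOB most sterol genes were lower than with vehicle in wildtype cells, and few of the differences passed the test. In wildtype cells Hmgcs1, Cyp51 and Insig1 fell and Npc1 rose. These are 10.7% and 3.57% of the 28, against 3.46% of all genes that fell and 3.8% that rose. The log2 fold change was below 0 for 22 of 28, with a median of -0.15 against -0.0057 for all genes. It was above 0 for 6 of 28, against 46.3% of all genes. In dKO cells Acly and Sqle fell and Idi1 rose, against 3.54% of all genes that fell and 3.04% that rose. There 17 of 28 were below 0, with a median of -0.058 against -0.013 for all genes. Above 0 were 11 of 28, against 45.8% of all genes. At an unadjusted p-value below 0.05, 14 genes were lower and 3 higher in wildtype cells, and 8 lower and 5 higher in dKO cells, where 9.58% and 10.9% of all genes were lower and 8.78% and 8.09% higher. With the compared groups alone, 0 passed in either genotype (limma), against 4.27% of all genes in wildtype and 1.86% in dKO cells, and 13 and 12 had an unadjusted p-value below 0.05 (background 18.2% and 16.1%). Without overlap, 12 genes lay below and 3 above vehicle in wildtype cells (background 12% and 10.6%), and 8 below and 4 above in dKO cells (background 11.5% and 9.51%).

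Of the genes that fell with MTOB in wildtype cells, Hmgcs1 had 33.6, 28.4 and 29.8 TPM against the vehicle values of 36.2 to 39.9 TPM given above. The groups did not overlap, with a log2 difference of -0.32 (SE 0.067, adjusted p = 0.00696, limma), and the call held whichever sample was left out. In dKO cells it had 41.0, 38.7 and 39.0 TPM, which overlapped with vehicle, and the log2 fold change was -0.055 (adjusted p = 0.747, limma). The difference between the genotypes was -0.27 (95% interval -0.47 to -0.066), which did not pass after adjustment (adjusted p = 0.589, limma).

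Cyp51 had 29.9, 32.3 and 34.5 TPM with vehicle and 26.3, 27.3 and 22.6 TPM with MTOB in wildtype cells, a log2 difference of -0.33 (SE 0.075, adjusted p = 0.0121, limma). With dKO cells the values were 41.0, 34.9 and 36.8 against 34.4, 32.1 and 32.3 TPM, a log2 fold change of -0.18 (adjusted p = 0.184, limma). The MTOB samples were below the vehicle samples in both genotypes. The wildtype call was lost without MTOB replicate 3 (adjusted p = 0.0606, limma) or vehicle replicate 3 (adjusted p = 0.0628, limma). Cyp51 shares 1253 exon bases with Akap9 on the opposite strand.

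Insig1 had 28.1, 30.1 and 33.2 TPM with MTOB in wildtype cells, all below vehicle, a log2 difference of -0.27 (SE 0.072, adjusted p = 0.0288, limma). In dKO cells its 36.9, 35.3 and 37.0 TPM fell within the vehicle range, with a log2 fold change of 0.00041 (95% interval -0.15 to 0.15). Its difference between genotypes was -0.28 and did not pass (adjusted p = 0.621, limma). The wildtype call was lost when any 1 sample other than MTOB replicate 3 was left out (adjusted p = 0.0502 to 0.128, limma).

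Acly fell with MTOB in dKO cells, from 108, 105 and 101 TPM to 77.1, 89.4 and 88.7 TPM, a log2 difference of -0.30 (SE 0.063, adjusted p = 0.00853, limma). In wildtype cells it had 108, 98.6 and 104 TPM with vehicle and 90.2, 80.8 and 95.7 TPM with MTOB, also without overlap, a log2 fold change of -0.22 (adjusted p = 0.0517, limma). Sqle had 60.4, 62.4 and 56.3 TPM with MTOB in dKO and 54.8, 54.8 and 55.8 TPM in wildtype cells. All of these lay below the vehicle samples of their genotype. The log2 fold change of Sqle was -0.21 in dKO (SE 0.051, adjusted p = 0.0185, limma) and -0.18 in wildtype cells (adjusted p = 0.0513, limma). The Acly call held whichever sample was left out, and that of Sqle was lost without dKO MTOB replicate 3 (adjusted p = 0.0800, limma) or dKO vehicle replicate 2 (adjusted p = 0.0754, limma). Acly shares 211 exon bases with Odad4 on the opposite strand.

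Idi1 went the other way in dKO cells, where MTOB samples had 66.9, 66.1 and 68.1 TPM, above all vehicle samples, with a log2 difference of 0.20 (SE 0.053, adjusted p = 0.0361, limma). In wildtype cells it had 55.5, 57.5 and 52.3 TPM with MTOB, which overlapped with vehicle, and a log2 fold change of -0.040 (adjusted p = 0.784, limma). The difference of -0.24 between genotypes had the smallest interaction p-value of the 28 genes but did not pass (adjusted p = 0.497, limma). The dKO call was lost when any 1 sample other than vehicle replicate 1 was left out (adjusted p = 0.0628 to 0.137, limma). Npc1, which encodes the membrane protein that moves cholesterol out of late endosomes and lysosomes, rose in wildtype cells from 17.5, 19.7 and 15.9 to 20.3, 20.9 and 24.7 TPM. Its log2 fold change was 0.30 (SE 0.083, adjusted p = 0.0430, limma) in wildtype and 0.20 (adjusted p = 0.210, limma) in dKO cells, without overlap in either. The call was lost without wildtype MTOB replicate 2 or 3 or vehicle replicate 1 or 3 (adjusted p = 0.0648 to 0.184, limma). Npc1 overlaps Rmc1, on the opposite strand, by 1086 exon bases.

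With the MTOB effect averaged over the genotypes, again a contrast chosen after the data were seen, 9 genes fell (32.1%) and 3 rose (10.7%), against 7.32% and 5.85% of all genes. The genes that fell were Dhcr7 (-0.44), Acly (-0.26), Cyp51 (-0.26), Mvd (-0.22), Nsdhl (-0.20), Sqle (-0.19), Hmgcs1 (-0.19), Srebf2 (-0.16) and Npc2 (-0.12), with adjusted p-values (limma) from 0.000975 for Acly to 0.0376 for Npc2. Dhcr7 encodes the reductase of the last step of one branch of cholesterol synthesis. Those that rose were Ggps1 (0.42, adjusted p = 0.0108, limma), which encodes the geranylgeranyl diphosphate synthase that leads away from sterols, Sc5d (0.25, adjusted p = 0.0281, limma), a sterol desaturase, and Npc1 (0.25, adjusted p = 0.0106, limma). The summed TPM of the 20 enzymes with MTOB was 864, 885 and 852 in wildtype and 941, 950 and 959 in dKO cells, below the vehicle samples of the same genotype in each case. Enzymes with high TPM weigh most in this sum. In dKO cells its mean went from 992 to 950 TPM and that of Acly alone from 105 to 85.1 TPM. The log2 fold change was above 0 for 5 of the 20 enzymes in wildtype and 8 in dKO cells.

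**Figure D4:**
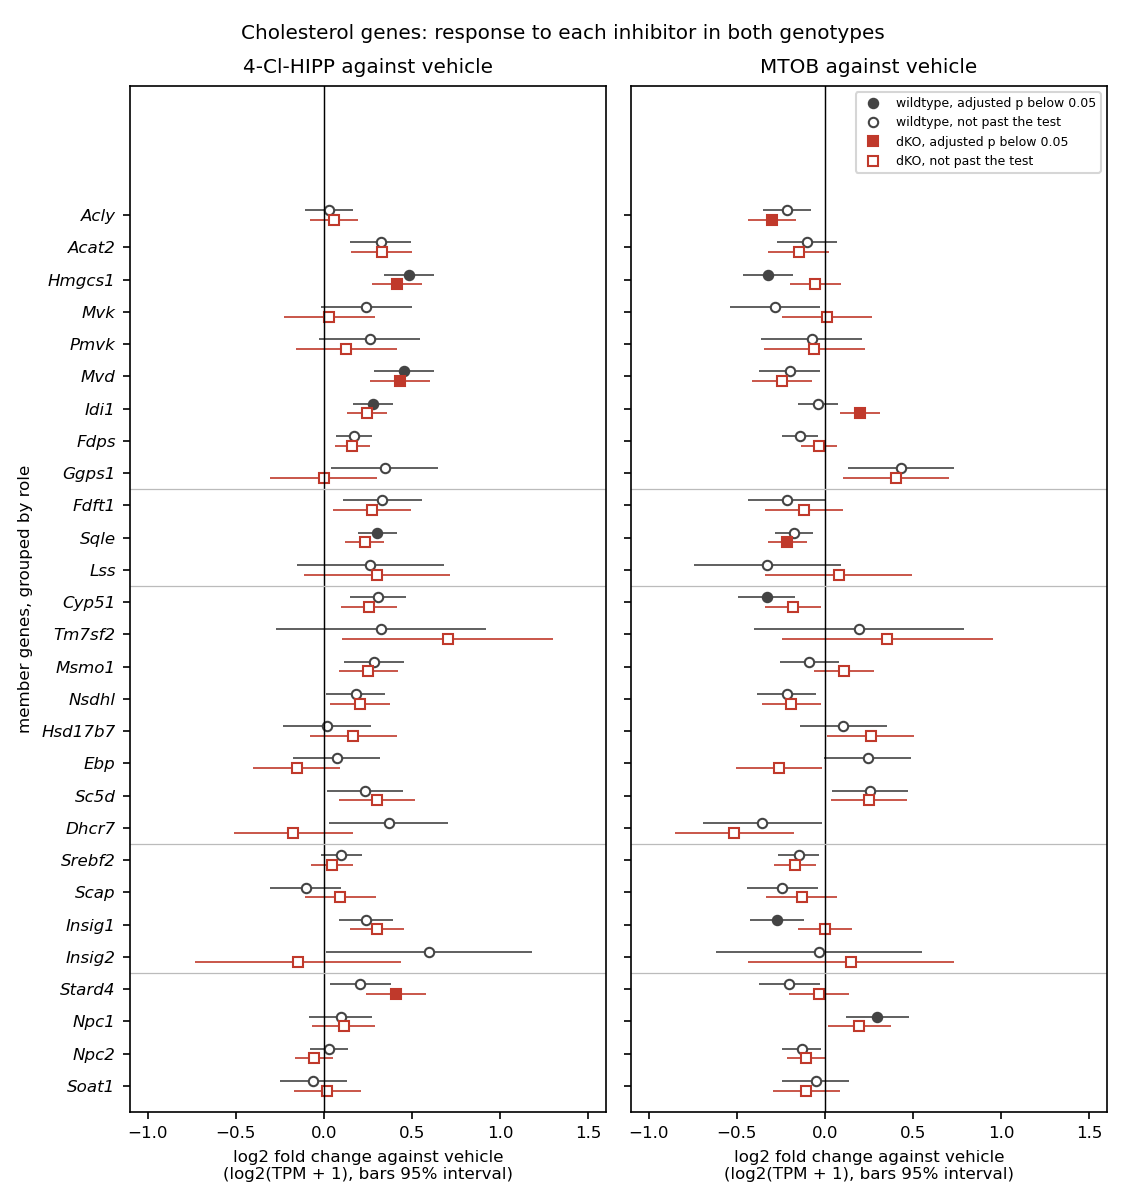
Log2 fold change against vehicle on the log2(TPM + 1) scale (x axes) of the 28 genes (y axis, grey lines separate the roles) for 4-Cl-HIPP (left) and MTOB (right). Circles are wildtype and squares dKO cells, filled where the adjusted p-value was below 0.05, and bars are 95% intervals. With 4-Cl-HIPP 26 genes in wildtype and 23 in dKO cells lie to the right of 0, with MTOB 6 and 11.

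The doses of the inhibitors differed, so their effects were not compared with each other. Side by side, Hmgcs1 in wildtype cells had 54.2 ± 2.04 TPM with 250 µM 4-Cl-HIPP and 30.6 ± 2.71 TPM with 1.5 mM MTOB (SD, n = 3), with 38.5 ± 2.01 TPM in the vehicle group that both share.

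The study made dKO cells to separate effects that need CTBP1 or CTBP2 from those that do not, so the difference between the inhibitor effects of the genotypes was tested for each gene. For 4-Cl-HIPP 0 of the 28 passed after adjustment (limma), as did 0% of all genes, and 1, Dhcr7, had an unadjusted p-value below 0.05, against 4.48% of all genes. Dhcr7 had a log2 fold change of 0.37 in wildtype and -0.17 in dKO cells. For MTOB 0 passed after adjustment (limma), against 0.0916% of all genes, and 4 had an unadjusted p-value below 0.05, against 6.89%. These 4 were Idi1, Ebp, Hmgcs1 and Insig1. The median half-width of the 95% interval of these differences was 0.25 on the log2 scale for either inhibitor. The log2 fold change was above 0 in both genotypes for 21 genes with 4-Cl-HIPP and below 0 in both for none, while 7 had opposite signs. With MTOB 16 were below 0 in both, 5 above 0 in both and 7 had opposite signs. The share of all genes with the same sign in both genotypes was not counted.

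Between the genotypes under vehicle, Npc2, Soat1 and Srebf2 were higher in dKO than in wildtype cells, and Acat2 was lower. These are 10.7% and 3.57% of the 28, against 7.01% of all genes that were higher and 3.72% that were lower. The other 24 did not pass, among them 19 of the 20 synthesis enzymes. Without overlap, 8 genes lay above and 1 below wildtype, where the background was 15.1% and 11%. The median log2 fold change was 0.059 for the 28 and 0.012 for all genes.

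Npc2 encodes the lysosomal protein that hands free cholesterol to NPC1. It had 42.2, 46.5 and 43.5 TPM in wildtype and 60.5, 57.3 and 58.9 TPM in dKO cells under vehicle, without overlap, a log2 difference of 0.41 (SE 0.051, adjusted p = 4.2e-05, limma). It shares 593 exon bases with Isca2 on the opposite strand, as do Soat1 with Gm37648 (82 bases) and Srebf2 with Shisa8 (686 bases). Soat1 had 132, 136 and 125 TPM in wildtype and 176, 174 and 194 TPM in dKO cells, a log2 difference of 0.46 (SE 0.089, adjusted p = 0.00225, limma). Srebf2 had 97.3, 95.3 and 97.0 TPM in wildtype and 114, 117 and 116 TPM in dKO cells, a log2 difference of 0.26 (SE 0.055, adjusted p = 0.00487, limma). The genotypes also did not overlap for Soat1 and Srebf2, and all 3 calls held whichever sample was left out.

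Acat2 had 44.9, 37.2 and 43.2 TPM in wildtype and 35.8, 35.4 and 30.9 TPM in dKO cells, a log2 difference of -0.29 (SE 0.080, adjusted p = 0.0309, limma). Its groups did not overlap, but the call was lost when dKO vehicle replicate 3 (adjusted p = 0.148, limma) or wildtype vehicle replicate 1 or 3 was left out (0.139 and 0.111). This gene has a close paralog, Acat3, between which reads could have been divided, and it shares exon bases with Tcp1 on the opposite strand, so its value is uncertain. In the inhibitor groups, which this comparison did not use, Npc2 had 39.9 to 45.1 TPM over the 6 wildtype and 51.2 to 58.8 TPM over the 6 dKO samples. Soat1 had 108 to 147 and 159 to 193 TPM there, again without overlap between genotypes. Srebf2 had 81.8 to 113 and 101 to 121 TPM, which overlapped.

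**Figure D5:**
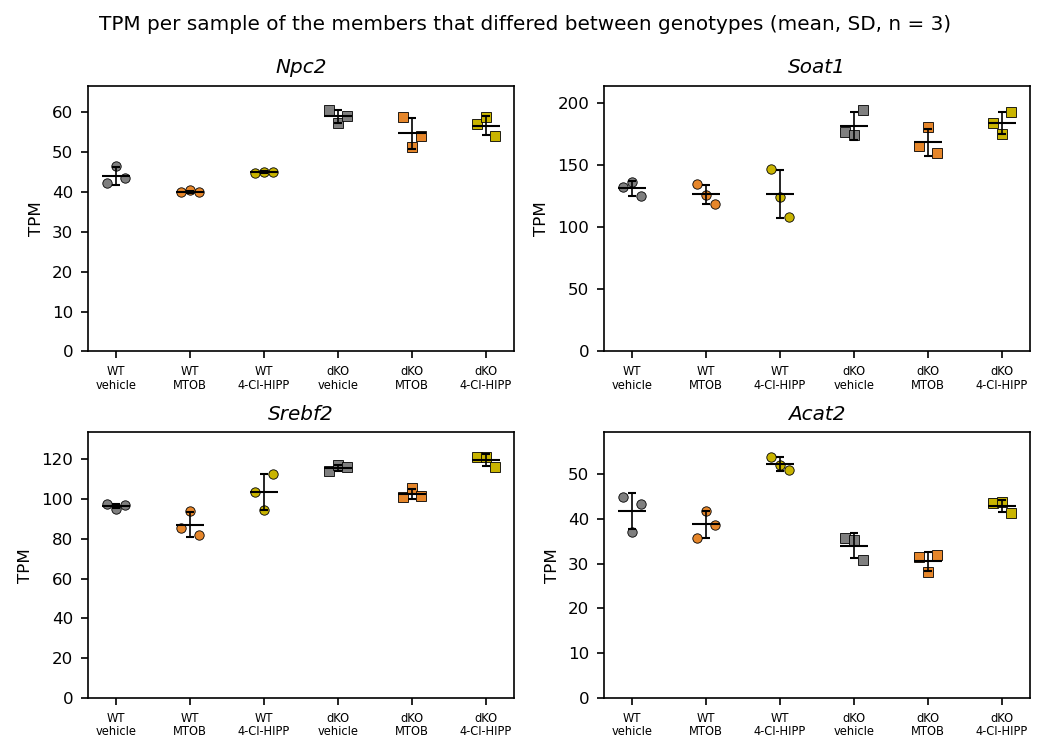
TPM of Npc2, Soat1, Srebf2 and Acat2 (y axes, from 0) in the 6 groups on the x axes, with samples as points, means as horizontal marks and SD as bars (n = 3). Circles are wildtype and squares dKO samples. Npc2 and Soat1 in every dKO sample lie above every wildtype sample whatever the treatment.

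Of the 22 other genes of the sterol pathway, with uptake, degradation and trafficking, 0 changed with 4-Cl-HIPP in either genotype at an adjusted p-value below 0.05 (limma). At an unadjusted p-value below 0.05, 3 were higher and 2 lower in wildtype cells (background 5.25% and 2.94%), and 2 higher and 2 lower in dKO cells (background 4.91% and 3.56%). With MTOB 4 of the 22 fell and 2 rose in wildtype cells (background 3.46% and 3.8%), and 2 fell and 1 rose in dKO cells (background 3.54% and 3.04%). Lbr, which encodes a sterol reductase of the inner nuclear membrane, fell by 0.22 on the log2 scale in wildtype (adjusted p = 0.0245, limma) and by 0.27 in dKO cells (adjusted p = 0.00838, limma). In dKO against wildtype cells 3 of the 22 were higher and 2 lower (background 7.01% and 3.72%), the latter being Rnf145 (log2 fold change -0.33, adjusted p = 0.0129, limma) and Tmem97 (-0.21, adjusted p = 0.0147, limma).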

How the data were processed

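RNA of 18 J774.1 samples was sequenced (6 groups, n = 3). The sources do not say whether replicates were separate cultures, so p-values measure the spread between these samples. The authors quantified transcripts with Salmon 1.9.0 on GRCm39 (Gencode) with GC correction and summarised them per gene with tximport. The deposited TPM per gene (headed scaledTPMs, a name the sources used here do not explain) sum to 999766 to 999897 per sample. The methods name rRNA depletion and the labels polyA RNA, with an unstranded kit in both. The authors' mean normalized count (DESeq2 1.44.0), a signal per gene over all samples, was used for the expression limit and variance trend. The deposited log2 fold changes and adjusted p-values of the authors were not used.

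Here, the 10th percentile of the mean normalized count (0.222) was taken as a lower limit, which 16383 genes passed. Their log2(TPM + 1) was modelled by the 6 group means of the 18 samples in limma 3.58.1 (R 4.3.3), using moderated variances with a trend, and p-values were adjusted per contrast by the Benjamini-Hochberg method. The procedure was tested on simulated data with changes of 1.5-fold and larger. Every change that passed among the 28 genes was smaller, so recovery of changes of that size was not tested. The member genes, the further lists, the motifs and the tests were chosen with earlier results of these data known. Sample values are given for the 12 genes with the smallest p-values among those that passed any comparison, and for Npc1, the remaining one that passed. They are also given for Insig2 and Ebp, which passed in no comparison and were picked for their values in these data. Other listed genes were limited to those with the smallest p-values, some of which are not reported here. Promoters are of the genes with the smallest p-values in wildtype 4-Cl-HIPP cells, the 250 bases before the canonical transcript start (Gencode M39), cut where a protein-coding exon begins (Idi1 is not shown because its window lies in its own exons). 3 comparisons tied for the most changed genes, and the one with all changes in 1 direction was taken. Of the 28 genes, 18 share exon bases with another gene, and how far shared reads affect their values was not measured. No pairing by replicate number was seen: of 45 same-numbered pairs, 0 had deviations correlated above 0.1. This cannot show that the samples were unpaired by design. Alternatives were another pseudocount, filter, scaling, trend or set of samples, a replicate block and leaving out each sample. Figures were drawn with matplotlib 3.10.9.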

Additional observations from a re-analysis of the deposited data

Results flagged for a closer look

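Ebp, which encodes a sterol isomerase, lay above vehicle with MTOB in wildtype and below it in dKO cells, without overlap in either. It was the only 1 of the 28 genes to do so, and neither change passed the test. Of all genes, 10.6% lay above vehicle without overlap in wildtype and 11.5% below in dKO cells. The share of all genes that did both was not counted. In wildtype cells it had 37.2, 32.8 and 37.0 TPM with vehicle and 41.5, 42.9 and 42.5 TPM with MTOB, a log2 fold change of 0.24 (adjusted p = 0.282, limma). The dKO samples had 33.1, 42.4 and 37.8 against 29.5, 32.3 and 31.9 TPM, a log2 fold change of -0.26 (adjusted p = 0.230, limma). The difference (wildtype minus dKO) was 0.50 (SE 0.16) and did not pass in the test of the difference itself (adjusted p = 0.522, limma).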

How the results depend on the processing

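Counts of changed genes were small and moved with the samples used. When the fit held the compared groups alone, 0 of 28 genes passed for MTOB in wildtype, 4-Cl-HIPP in wildtype, MTOB in dKO and 4-Cl-HIPP in dKO cells, although 13, 13, 12 and 14 had an unadjusted p-value below 0.05 (limma). Such a fit has fewer samples for the spread. Without a variance trend 2 genes passed for 4-Cl-HIPP in wildtype cells. With 1 sample left out, the counts ranged from 1 to 4 for MTOB in wildtype, from 1 to 3 for 4-Cl-HIPP in wildtype, from 1 to 4 for MTOB in dKO, from 0 to 2 for 4-Cl-HIPP in dKO and from 3 to 5 for dKO against wildtype, and the interactions stayed at 0 and 0. The lowest counts came without wildtype vehicle replicate 3 (MTOB and 4-Cl-HIPP in wildtype, 1 each), wildtype 4-Cl-HIPP replicate 1 or 2 (1 each), dKO vehicle replicate 2 (MTOB 1, 4-Cl-HIPP 0), dKO MTOB replicate 3 (1) and dKO 4-Cl-HIPP replicate 1 (0). With the replicate block 4, 3, 3, 2 and 4 genes passed in these 5 comparisons, and 0 in each interaction.

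Of 14 alternatives each, Npc2, Soat1 and Srebf2 kept their calls between the genotypes in all, Hmgcs1 in wildtype cells lost its calls in 1 for each inhibitor (the fit of the compared groups, adjusted p = 0.0971 with MTOB and 0.103 with 4-Cl-HIPP, limma) and Acly in dKO cells in 1, and the other 12 calls were lost in 3 to 8. The contrasts averaged over genotypes gave 8 to 11 genes that rose with 4-Cl-HIPP, and 7 to 9 that fell and 2 to 3 that rose with MTOB. The median of the 28 ranged from 0.21 to 0.26 with 4-Cl-HIPP in wildtype, from 0.16 to 0.23 in dKO, from -0.17 to -0.12 with MTOB in wildtype and from -0.083 to -0.028 in dKO cells. Between the genotypes it ranged from 0.031 to 0.070, with 15 to 22 genes above 0. The median difference between the genotypes ranged from -0.096 to -0.018 for MTOB and turned sign for 4-Cl-HIPP (-0.012 to 0.043, with 13 to 21 genes above 0). No named value changed its direction while called. A trend on log2(mean normalized count + 1) was added after the data were seen.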

Other observations

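Fatty acid synthesis genes, 19 of which were measured, are controlled in part by the related factor SREBP1. With 4-Cl-HIPP 2 of them rose in each genotype and 0 fell. Of all genes, 0.324% rose and 0.0427% fell in wildtype, and 0.403% rose and 0.0977% fell in dKO cells. The 2 genes that rose encode desaturases of polyunsaturated fatty acids. Fads2 had 163, 161 and 170 TPM with vehicle and 202, 219 and 202 TPM with 4-Cl-HIPP in wildtype cells, a log2 fold change of 0.33 (adjusted p = 0.00251, limma), and 206, 214 and 218 against 271, 264 and 282 TPM in dKO cells, which gave a log2 fold change of 0.36 (adjusted p = 0.00136, limma). Fads1 rose by 0.30 and 0.26. These genes were also higher in dKO than in wildtype cells under vehicle, Fads1 by 0.54 and Fads2 by 0.37.

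With MTOB 3 of the 19 fell and 1 rose in wildtype cells (background 3.46% and 3.8%). In dKO cells 4 fell and 1 rose (background 3.54% and 3.04%). Srebf1, which encodes SREBP1, fell by 0.38 on the log2 scale in wildtype and by 0.36 in dKO cells, and Scd2, a stearoyl-CoA desaturase gene, fell by 0.53 and 0.30. Me1, which encodes the malic enzyme that supplies NADPH, rose by 0.36 and 0.43. Fasn, the fatty acid synthase gene, fell in dKO cells by 0.43 (adjusted p = 0.00679, limma).

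Of 11 measured genes of the oxysterol response and cholesterol efflux, 0 changed with either inhibitor in either genotype at an adjusted p-value below 0.05 (limma). At an unadjusted p-value below 0.05, 3 were lower with MTOB and 3 higher with 4-Cl-HIPP in wildtype cells (background 9.58% and 5.25%). In dKO cells 2 were lower with MTOB and 1 higher with 4-Cl-HIPP (background 10.9% and 4.91%). Between genotypes Nceh1, which encodes a cholesteryl ester hydrolase, was lower in dKO cells, with 8.60, 9.06 and 8.21 TPM in wildtype and 4.25, 4.09 and 4.83 TPM in dKO cells (log2 fold change -0.84, adjusted p = 0.000448, limma). Lipa, which encodes the lysosomal acid lipase, was higher by 0.16 (adjusted p = 0.0289, limma).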
